A study of Mus musculus with 6 samples.

Results

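Respiratory complexes II to V carry electrons from succinate and ubiquinol to oxygen and turn the resulting proton gradient into ATP. Their subunits were examined in liver RNA of aged WT and CgA-KO mice. The members are the rows of the deposited count table whose symbols belong to the Sdh, Uqcr, Cox4 to Cox8 and Atp5 families, together with Cyc1, Cycs and the mitochondrial genes COX1, COX2, COX3, CYTB, ATP6 and ATP8. Rows named as pseudogenes were left out, and this gave 55 of 32212 rows. Of the 55, 49 are encoded in the nucleus and 6 in mitochondrial DNA.

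The 6 libraries came from poly(A)-selected liver RNA of male C57BL/6 mice on normal chow, with an age of 2 yr on every label, 3 WT and 3 CgA-KO. CgA-KO mice lack chromogranin A, the prohormone encoded by Chga, and the WT mice carry no other named allele or treatment. Each library is bulk liver from a single animal, so that fewer cells of a type and less RNA per cell cannot be told apart. The labels name 3 replicates of each genotype, and the methods of the study give 3 mice of each.

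Total counts ran from 10558616 to 31087453 per library, and Chga had 0 counts in all 6, so it cannot check the genotype labels. Levels are given in CPM, counts scaled by the normalized library total. An undetected gene could be present at up to 3 counts, which is 0.0951 to 0.269 CPM depending on the library, and this limit covers counting error only. Of 18 tested hepatocyte markers, none was at 0 in any library and edgeR called 0 different, with summed levels of 69990 to 114100 CPM (WT) and 60790 to 102800 CPM (CgA-KO). Markers of other cells did move with genotype. Over all genes tested, edgeR called 8.6% higher and 3.84% lower in CgA-KO livers. Of 15 Kupffer cell and macrophage markers 12 were called higher in CgA-KO livers, with summed levels of 370 to 648 CPM (WT) and 2163 to 2938 CPM (CgA-KO), and none of the 15 was at 0 in any library. Of 14 lymphocyte markers 7 were called higher (18.9 to 86.1 against 109 to 228 CPM), as were 5 of 10 stellate cell markers (247 to 303 against 428 to 660 CPM) and 3 of 6 tested neutrophil and marrow markers (8.30 to 14.5 against 51.5 to 385 CPM). The highest of the last values was that of CgA-KO replicate 2, and Mpo, a marker of marrow precursors in that list, was at 0 in all WT libraries and in CgA-KO replicate 1. Erythroid markers (118 to 291 against 335 to 477 CPM) had 2 of 5 called higher and 1 called lower. Sinusoidal endothelial markers (153 to 207 against 173 to 251 CPM) had 2 of 9 called higher and 1 called lower. For bile duct markers (19.2 to 30.6 against 18.6 to 73.6 CPM) 0 of 5 were called. The part of these cells in the results that follow was not tested.

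Complex II, succinate dehydrogenase, is built from nuclear genes alone and also works in the citric acid cycle. Complex III passes electrons from ubiquinol to cytochrome c, the small soluble carrier encoded by Cycs, and complex IV passes them on to oxygen. Complex V is the ATP synthase, with a catalytic F1 head and a membrane-bound Fo part around a ring of c subunits. Liver mitochondria use these complexes to power gluconeogenesis, urea synthesis and other costly pathways, and the mitochondrial genes are transcribed and translated inside the organelle while all other subunits are imported.

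Transcription factors such as NRF1, GABP (an ETS factor), YY1 and ERR are known regulators of nuclear respiratory genes, and the promoters of the nuclear members were therefore searched for their usual letters. A promoter window of 250 bases before and 50 after the annotated start was found for 37 of the 49 nuclear members, of which 34 were tested for genotype (RefSeq, GRCm38.p6). No window was found for Sdhc, Uqcrq, Uqcrb, Uqcrc2, Cyc1, Cox6c, Cox4i1, Cox4i2, Cox6a2, Cox8c, Atp5mpl and Atp5a1. The NRF1 letters, GCGCA and GCGC with any 1 base between them, read on both strands, stood in 10 of 34 such windows (29.4%), against 10.6% of 11013 tested genes and 5.19% of all 27025 genes with a window. The ETS letters CCGGAAG stood in 13 of 34 (38.2%), against 18.8% and 9.93%. The YY1 letters AANATGGC and the ERR letters AAGGTCA each stood in 5 of 34 (14.7%), against 9.64% and 4.23% of the tested genes. Motifs were counted separately, also where their matches overlapped. A match describes the letters and does not show that a factor binds there. The median log2 fold change between genotypes was -0.56 for the 10 members with the NRF1 letters and -0.74 for the 24 without, and -0.76 and -0.56 for the 13 with and the 21 without the ETS letters. For YY1 the medians were -0.73 (5 genes) and -0.56 (29 genes), and for ERR -0.87 (5 genes) and -0.56 (29 genes). None of these differences was tested.

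To show the letters in place, the upstream sequence is given for 1 gene each of complexes II, IV and V, the tested member with the most negative log2 fold change among those with NRF1 letters before the start. Each run is the 250 bases before the annotated start, 5′ to 3′ on the strand of the gene, with the NRF1 letters in capitals. Sdhd lies on the minus strand of GRCm38.p6 (chr9:50603850-50604099), Cox6a1 on the minus strand (chr5:115348959-115349208) and Atp5k on the minus strand (chr5:108434400-108434649).
Sdhd: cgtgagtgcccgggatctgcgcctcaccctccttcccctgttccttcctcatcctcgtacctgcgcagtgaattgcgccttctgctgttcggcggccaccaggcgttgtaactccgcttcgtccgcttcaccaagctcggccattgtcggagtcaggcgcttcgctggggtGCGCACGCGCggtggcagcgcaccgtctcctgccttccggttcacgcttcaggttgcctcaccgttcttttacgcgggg
Cox6a1: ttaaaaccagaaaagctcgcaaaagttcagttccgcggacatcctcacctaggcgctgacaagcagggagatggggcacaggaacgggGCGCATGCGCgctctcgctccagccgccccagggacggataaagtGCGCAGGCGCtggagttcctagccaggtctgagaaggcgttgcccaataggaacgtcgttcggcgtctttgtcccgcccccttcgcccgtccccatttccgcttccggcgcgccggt
Atp5k: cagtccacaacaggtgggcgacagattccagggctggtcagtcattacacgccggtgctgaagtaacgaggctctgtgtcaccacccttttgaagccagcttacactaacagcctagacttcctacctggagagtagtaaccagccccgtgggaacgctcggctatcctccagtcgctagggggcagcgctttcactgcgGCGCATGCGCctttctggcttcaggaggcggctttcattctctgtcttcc
The capitals begin 79 bases before the start in Sdhd and 50 bases before it in Atp5k, while Cox6a1 holds a pair of matches that begin 162 and 117 bases before it.

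Nuclear subunits had log2 fold changes (CgA-KO minus WT) below 0 throughout, although edgeR called no single one. With scaling by library size alone, which moved the median over all genes to 0.26, 7 of them turned above 0. Of the 49 nuclear rows, 43 passed the filter on low counts and were tested, and all 43 had a log2 fold change below 0, compared with 50.6% of all 13867 genes tested. The nuclear members ran from -1.32 to -0.13 with a median of -0.56, or 1.48-fold higher in WT, where the median over all genes was -0.01. With edgeR (quasi-likelihood test, threshold 0.05 after adjustment), 0 members were called lower (3.84% of all genes were) and 0 were called higher (8.6% of all genes). Their smallest adjusted p was 0.0557. An unadjusted p-value under 0.05 was reached by 20 nuclear members (46.5%), all lower, against 11.9% of all genes. In 16 of the 43 (37.2%) every CgA-KO liver lay below every WT liver, against 14.6% of all genes. DESeq2, the tool named in the methods of the study, called 12 members lower, against 7.15% of all genes, and 0 higher (11.6% of all genes), while limma-voom called 0, with 19 nuclear members at an unadjusted p-value under 0.05. The 12 were Uqcr11 and Uqcrq of complex III, Cox6c, Cox7a2, Cox7b and Cox7c of complex IV, and Atp5e, Atp5g1, Atp5j, Atp5k, Atp5md and Atp5mpl of complex V.

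**Figure D1:**
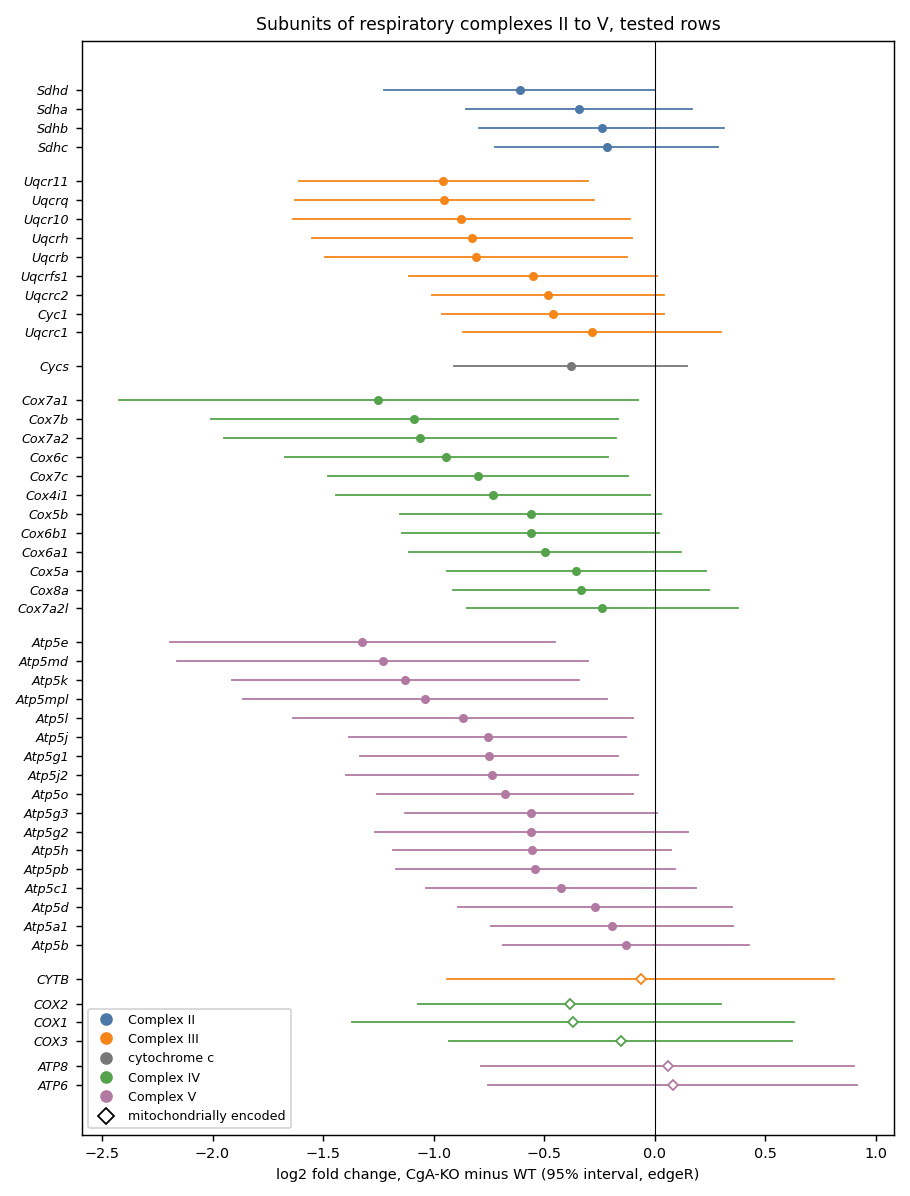
Log2 fold change (CgA-KO minus WT) of the 49 tested members with 95% intervals from edgeR, grouped by complex, with filled circles for nuclear and open diamonds for mitochondrially encoded genes (n = 3 livers each). All 43 nuclear members lie below 0, between -1.32 and -0.13, and the mitochondrially encoded ones lie between -0.39 and 0.08. With scaling by library size alone 7 of the 43 turn above 0, while the median over all genes moves to 0.26.

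The size of this shift depended most on WT replicate 2, while scaling moved the nuclear members along with all genes. With scaling by library size alone the median over all genes moved to 0.26. Of 43 nuclear members 36 then stayed below 0. The nuclear median was -0.26, which was 0.52 below that of all genes, compared with 0.55 below it with the scaling used elsewhere. Without WT replicate 2 the nuclear median was -0.33, with 41 of 43 below 0 and 4 at an unadjusted p-value under 0.05. Leaving out any other single library gave nuclear medians from -0.72 to -0.58. Without WT replicate 1 edgeR called 11 members lower, against 3.95% of the 14262 genes tested there, and 10 of these were among the 12 called by DESeq2. WT replicate 2 had the highest TMM-normalized level (TMM, trimmed mean of M values) of all 6 libraries in 43 of 43 nuclear members. The lowest level was in CgA-KO replicate 2 in 22 members, in CgA-KO replicate 1 in 19 and in CgA-KO replicate 3 in 2. Summed over the 49 nuclear rows, WT replicates 1, 2 and 3 held 7242, 13720 and 8991 CPM, and CgA-KO replicates 1, 2 and 3 held 6098, 6468 and 7221 CPM. All CgA-KO livers thus lay below all WT livers in this sum, CgA-KO replicate 3 only just below WT replicate 1. As a share of all counts, without TMM factors, CgA-KO replicate 3 (0.781%) was above WT replicate 1 (0.766%), so the genotypes overlapped.

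WT replicate 2 and CgA-KO replicate 2 were left out together in a fit chosen after the values were seen. There the nuclear median was -0.31, with 42 of 43 members below 0 and 0 called. WT replicate 2 also had the lowest scaling factor, 0.756, where those of the other libraries were between 0.935 and 1.12.

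**Figure D2:**
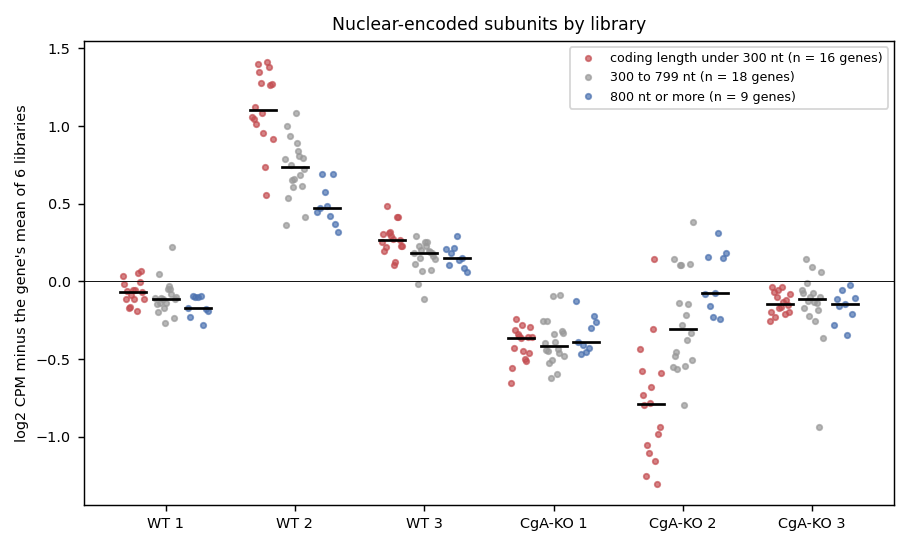
Level of each tested nuclear member in each library, as log2 CPM minus the gene's own mean over the 6 libraries; points are genes, colours give coding length and black bars are medians. WT replicate 2 lies above the other libraries in every length class, and in CgA-KO replicate 2 the short genes lie lowest.

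The most negative log2 fold changes were those of small subunits, although Cox8a, also small, had -0.33. The 16 nuclear members with an annotated coding length under 300 nt had a median log2 fold change of -0.95, the 18 with 300 to under 800 nt one of -0.56, and the 9 with at least 800 nt one of -0.34. Across the 43 genes, which share libraries and are not independent, Spearman's rho between log2 fold change and coding length was 0.77, and with transcript length it was 0.69. The same classes over all genes tested gave medians of -0.41 (n = 282), -0.15 (n = 2639) and 0.03 (n = 10312), with a rho of 0.12. The order of the classes was thus shared with all genes, and whether the members differed from other genes of like length was not tested.

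The gradient with length was also present between mice of the same genotype. From WT replicate 1 to WT replicate 2 the median log2 difference was 1.17 for the short and 0.62 for the long nuclear members. Between CgA-KO replicates 1 and 2 the short members differed by a median of -0.45 (replicate 2 minus replicate 1) and the long ones by 0.37. Between replicates 1 and 3 the short and long medians were nearly level, at 0.33 and 0.32 in WT and 0.29 and 0.27 in CgA-KO, with rho of -0.15 and -0.13. With both replicates 2 left out, the medians of the 3 length classes were -0.33, -0.31 and -0.23 and rho was 0.40. With an offset for transcript length in each library, added after the gradient was seen, the nuclear median was -0.36 with 39 of 43 below 0, the class medians were -0.44, -0.27 and -0.23, and 0 members were called. RNA integrity values were not used here, and the part of RNA quality in the gradient was not tested.

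**Figure D3:**
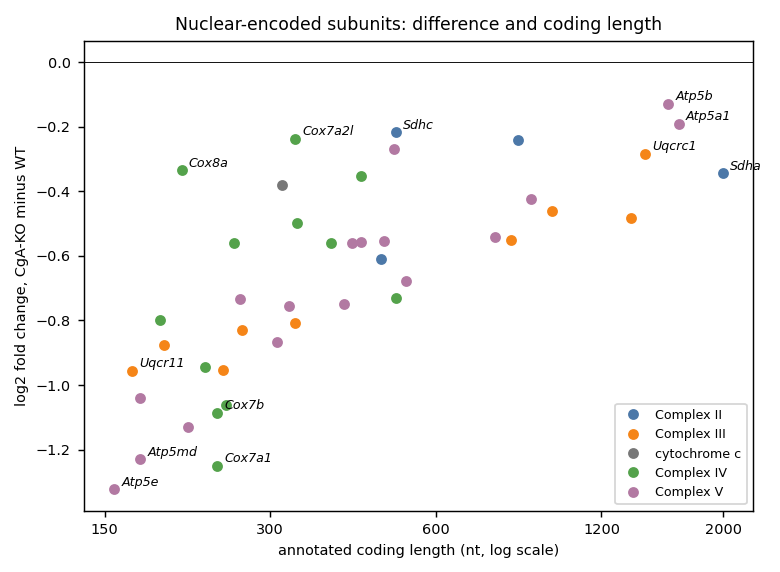
Log2 fold change (CgA-KO minus WT) of the 43 tested nuclear members against annotated coding length on a log axis, coloured by complex, each point a gene. Short ones, such as Atp5e at -1.32, tend to lie lower than long ones, such as Atp5b at -0.13. The longest, Sdha, lies at -0.34, and Cox8a (207 nt) lies at -0.33. With library size alone 7 of the 43 turn above 0, while the median over all genes moves to 0.26.

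Complex II had the median nearest 0 of the complexes. The median over its 4 genes was -0.29 (log2 fold change) and -0.14 without WT replicate 2, and in each of them the genotypes overlapped. Sdhd, a membrane anchor subunit (GRCm38 chr9:50596357-50603812, minus strand), was at 144, 269 and 177 CPM in WT replicates 1, 2 and 3 and at 131, 106 and 150 CPM in CgA-KO replicates 1, 2 and 3. Only CgA-KO replicate 3 reached into the WT range. Its log2 fold change was -0.61 (SE 0.271, adjusted p = 0.174 by edgeR), and -0.32 without WT replicate 2. Sdha, the flavoprotein that oxidises succinate, had means of 292 ± 61 CPM (WT) and 230 ± 16.4 CPM (CgA-KO, SD, n = 3 each), with a log2 fold change of -0.34. Sdhb, the iron-sulfur subunit, and Sdhc, the other anchor, had values of -0.24 and -0.22. Without WT replicate 2 these were -0.05 for Sdhb and -0.08 for Sdhc.

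In complex III the small subunits had more negative values than the large core proteins, a difference that was not tested. The 9 nuclear genes had a median of -0.81, and -0.42 without WT replicate 2. The 5 small ones, Uqcr11, Uqcrq, Uqcr10, Uqcrh and Uqcrb, had log2 fold changes from -0.96 to -0.81, while the core proteins Uqcrc1 and Uqcrc2, cytochrome c1 (Cyc1) and the Rieske iron-sulfur protein (Uqcrfs1) ran from -0.55 to -0.28. Uqcr11 (chr10:80402997-80406830, minus strand) was at 132, 269 and 154 CPM in WT replicates 1 to 3 and at 82.3, 95.7 and 109 CPM in CgA-KO replicates 1 to 3. Every CgA-KO liver was below every WT liver. Its log2 fold change was -0.96 (SE 0.288, adjusted p = 0.0623 by edgeR), DESeq2 called it (adjusted p = 0.012), and so did edgeR without WT replicate 1 (adjusted p = 0.0291). Without WT replicate 2 it was -0.59.

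Uqcrb, a small ubiquinone-binding subunit (chr13:66900617-66905378, minus strand), was at 122, 281 and 172 CPM in WT and at 103, 101 and 124 CPM in CgA-KO replicates 1, 2 and 3. CgA-KO replicate 3 lay just above WT replicate 1, so the genotypes overlapped. The log2 fold change was -0.81 (95% interval -1.49 to -0.13, adjusted p = 0.115 by edgeR), and it ran from -1.01 without WT replicate 1, where edgeR called it (adjusted p = 0.0336), to -0.43 without WT replicate 2. Cycs, at 78.2 ± 17.2 (WT) and 60.1 ± 13.1 CPM (CgA-KO, SD, n = 3 each), had a log2 fold change of -0.38 (adjusted p = 0.318 by edgeR), and -0.19 without WT replicate 2. Uqcrc1 had 182 CPM in CgA-KO replicate 2, above WT replicates 1 (137 CPM) and 3 (161 CPM), and was singled out after its values were seen. From -0.28 the log2 fold change went to -0.52 without that library and to -0.14 without WT replicate 2.

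For complex IV, 12 of 18 nuclear rows were tested, with a median of -0.65 (-0.33 without WT replicate 2). In 4 of them every CgA-KO liver lay below every WT liver, against 14.6% of all genes. Many of its subunits come as a broadly expressed and a tissue-restricted isoform, and liver uses the former. The most negative log2 fold change was that of Cox7a1, the heart and muscle form of subunit 7a (chr7:30184144-30186078, plus strand), which was low. It had 12, 75 and 40 counts in WT and 22, 16 and 23 in CgA-KO replicates 1, 2 and 3. In CPM every CgA-KO liver lay below every WT liver, at 1.02, 0.507 and 1.03 against 1.08, 3.19 and 1.69, although WT replicate 1 and CgA-KO replicate 3 were nearly level. The log2 fold change was -1.25 (SE 0.519, adjusted p = 0.149 by edgeR), and -0.73 without WT replicate 2.

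Cox7a2, the liver form of the same subunit, was at 173, 445 and 230 CPM in WT and at 144, 85.7 and 177 CPM in CgA-KO replicates 1, 2 and 3. CgA-KO replicate 3 was marginally above WT replicate 1. The log2 fold change was -1.06 (SE 0.392, adjusted p = 0.112 by edgeR; DESeq2, adjusted p = 0.0358), and -0.57 without WT replicate 2. Per kilobase of annotated transcript, the mean WT level was 429 CPM for Cox7a2 and 5.05 CPM for Cox7a1. Cox7a2l, a relative of subunit 7a, was at 133 ± 48.6 (WT) and 113 ± 14.6 CPM (CgA-KO, SD, n = 3 each). Its log2 fold change was -0.24 (adjusted p = 0.612 by edgeR) and turned to 0.10 without WT replicate 2 and to 0.09 with library size alone.

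Cox4i1, the regulatory subunit 4 of most tissues, was at 384, 809 and 496 CPM in WT and at 310, 287 and 421 CPM in CgA-KO replicates 1, 2 and 3, so that the highest CgA-KO liver was above the lowest WT liver. The log2 fold change was -0.73 (SE 0.314, adjusted p = 0.162 by edgeR), and -0.38 without WT replicate 2. Cox6a1, Cox6b1 and Cox8a, the general forms of 3 small structural subunits, had log2 fold changes of -0.50, -0.56 and -0.33, each with overlap. With the length offset these were -0.03, -0.13 and 0.14, and without WT replicate 2 they were -0.27, -0.28 and -0.12. Per kilobase of annotated transcript, Cox4i1 (745 CPM) and Cox6c (715 CPM) had the highest mean WT levels among the nuclear subunits of the complex.

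The 6 rows that did not pass the filter on low counts were tissue-restricted isoforms of complex IV. Cox8c and Cox7b2 had 0 counts in all 6 libraries. Cox6a2 had 2 counts over the WT and 0 over the CgA-KO libraries, Cox8b 9 and 15, and Cox6b2 21 and 21. Cox4i2, the form of subunit 4 known from lung and smooth muscle, had 0 counts in the WT libraries and 4, 7 and 9 in CgA-KO replicates 1, 2 and 3. Compared with the mean of the floors of 3 counts in each WT library, the mean CgA-KO level of 0.27 CPM was 1.55-fold higher. This is not a lower bound, since counting error in the CgA-KO libraries is not covered. The floor of WT replicate 1 alone, 0.269 CPM, was above the levels of CgA-KO replicates 1 (0.186 CPM) and 2 (0.222 CPM).

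Complex V held Atp5e, the member with the most negative log2 fold change. Its 17 nuclear genes had a median of -0.68 (-0.39 without WT replicate 2), and in 8 of them, against 14.6% of all genes, every CgA-KO liver was below every WT liver. Atp5e, the epsilon subunit of the F1 stalk and the shortest coding sequence among the tested nuclear members (156 nt, GRCm38 chr2:174461072-174464105, minus strand), was at 156, 400 and 200 CPM in WT replicates 1, 2 and 3. In CgA-KO replicates 1, 2 and 3 it was at 105, 67.3 and 130 CPM, all below WT. The means were 252 ± 130 and 101 ± 31.5 CPM (SD, n = 3 each), a log2 fold change of -1.32 (SE 0.385, 95% interval -2.19 to -0.45, adjusted p = 0.0557 by edgeR). DESeq2 called it (adjusted p = 0.00528), as did edgeR without WT replicate 1 (adjusted p = 0.0244). Without WT replicate 2 the log2 fold change was -0.82 and without CgA-KO replicate 2 it was -1.05.

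Small membrane subunits were next in size. Atp5md, Atp5k and Atp5mpl, singled out after their values were seen, had log2 fold changes of -1.23, -1.13 and -1.04 (edgeR adjusted p of 0.0841, 0.0662 and 0.0958), without overlap between the genotypes. Without WT replicate 2 they were -0.73, -0.67 and -0.53. Atp5k, whose upstream sequence is shown above, was at 80.2, 184 and 92 CPM in WT and at 55.5, 38.8 and 68.9 CPM in CgA-KO replicates 1, 2 and 3. The catalytic alpha and beta subunits of the head, Atp5a1 and Atp5b, lay at the other end of the range. Atp5a1 was at 490, 713 and 587 CPM in WT and at 475, 614 and 479 CPM in CgA-KO replicates 1, 2 and 3. The values of CgA-KO replicate 2 lay within the WT range. Its log2 fold change was -0.19 (SE 0.242, 95% interval -0.74 to 0.36, adjusted p = 0.648 by edgeR), and 0.10 with library size alone. Atp5b had a log2 fold change of -0.13 (95% interval -0.68 to 0.43), and 0.01 without WT replicate 2.

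The c subunit of the Fo ring is made from a trio of genes that encode the same mature protein. Atp5g1 was at 104, 190 and 126 CPM in WT and at 69.8, 91.1 and 88.8 CPM in CgA-KO replicates 1, 2 and 3, with no overlap. The log2 fold change was -0.75 (SE 0.257, adjusted p = 0.0906 by edgeR; DESeq2, adjusted p = 0.036), and edgeR called it without WT replicate 1 (adjusted p = 0.0436). Without WT replicate 2 it was -0.47 (adjusted p = 0.199 by edgeR). Atp5g3, at 349 ± 96.4 (WT) and 237 ± 27.5 CPM (CgA-KO, SD, n = 3 each), had -0.56 (-0.32 without WT replicate 2) and also no overlap. Atp5g2 was low, at 8.14 ± 1.61 (WT) and 5.53 ± 1.89 CPM (CgA-KO, SD, n = 3 each), and had -0.56 as well. Per kilobase of annotated transcript, the WT level was 485 CPM for Atp5g3 and 11.1 CPM for Atp5g2.

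The mitochondrially encoded subunits lay nearer 0, and the difference between the genomes was not tested. Their log2 fold changes ran from -0.39 for COX2 to 0.08 for ATP6, with a median of -0.11, and 0 of the 6 had an unadjusted p-value under 0.05. Their median turned to 0.19 with library size alone, where that of all genes was 0.26, and to 0.16 with the length offset. The genotypes overlapped in all 6. COX1, the catalytic core of complex IV, was at 40960, 79040 and 49890 CPM in WT and at 57280, 24820 and 49370 CPM in CgA-KO replicates 1, 2 and 3. Its log2 fold change was -0.37 (SE 0.441, adjusted p = 0.629 by edgeR). COX2, which holds the copper site that receives electrons from cytochrome c, was at 8201 ± 1320 (WT) and 6278 ± 1370 CPM (CgA-KO, SD, n = 3 each), with -0.39 (adjusted p = 0.441 by edgeR). COX3 was at 11220 ± 1664 and 10090 ± 3374 CPM, with -0.15.

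CYTB, the haem-bearing core of complex III, was at 13480, 24020 and 15550 CPM in WT and at 20950, 10760 and 19060 CPM in CgA-KO replicates 1, 2 and 3. CgA-KO replicate 2 was the lowest of the 6 libraries and CgA-KO replicates 1 and 3 lay between WT replicates 2 and 3. The log2 fold change was -0.06 (95% interval -0.94 to 0.81), and it turned to 0.25 with library size alone and to 0.22 without CgA-KO replicate 2. ATP6, the Fo subunit that forms the proton channel, was at 7637, 13300 and 9563 CPM in WT and at 14070, 7077 and 11130 CPM in CgA-KO replicates 1, 2 and 3. Its log2 fold change was 0.08 (95% interval -0.75 to 0.92, adjusted p = 0.912 by edgeR), and -0.12 without CgA-KO replicate 1. ATP8 had 0.06 and -0.23 without that library. ATP8 (M, 7766 to 7969) and ATP6 (M, 7927 to 8607) overlap by 43 nt in the GRCm38 annotation and are read from the same messenger, so reads could be split between them.

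CgA-KO replicate 2 was the lowest library in COX1, COX3, CYTB, ATP6, ATP8 and COX2 alike. Per kilobase, COX1 had the highest level of the members, 36650 (WT) and 28360 CPM (CgA-KO). The 6 mitochondrial rows held 8.74%, 10.8% and 8.84% of all counts in WT replicates 1, 2 and 3 and 13.2%, 6.22% and 10.6% in CgA-KO replicates 1, 2 and 3.

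The ratio of mitochondrial to nuclear subunit counts within a library does not depend on scaling between libraries. It was 11.4, 10.4 and 10.5 in WT replicates 1, 2 and 3, a narrow range, and 19.3, 8.75 and 13.5 in CgA-KO replicates 1, 2 and 3. CgA-KO replicates 1 and 3 lay above all WT livers and CgA-KO replicate 2 below them. On the log2 scale the means were 3.43 ± 0.0736 in WT and 3.72 ± 0.572 in CgA-KO (SD, n = 3 each), a difference of 0.29 that was smaller than the SD within CgA-KO. Leaving out CgA-KO replicate 2 gave 0.59, and leaving out CgA-KO replicate 1 gave 0.02.

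**Figure D4:**
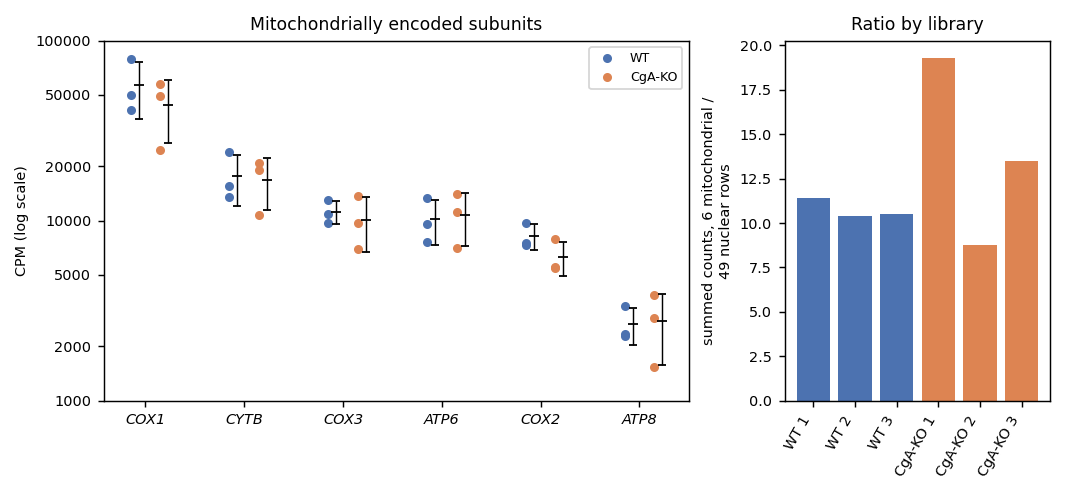
Left, level of the 6 mitochondrially encoded subunits in CPM on a log axis, with points for livers and bars for mean ± SD (n = 3 each); right, summed counts of these 6 rows over those of the 49 nuclear rows in each library. The genotypes overlap in all 6 genes, and the ratio is 10.4 to 11.4 in WT and 8.75 to 19.3 in CgA-KO libraries.

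Nuclear subunits of complex I, the entry point for NADH electrons, are given for comparison. Of 39 such genes 38 had a log2 fold change below 0 (50.6% of all genes did), with a median of -0.60, and -0.33 without WT replicate 2. Ndufb2 was the only one that edgeR called lower (log2 fold change -1.06, adjusted p = 0.0444, against 3.84% of all genes), while DESeq2 called 12 of the 39 lower (7.15% of all genes). The 7 mitochondrially encoded subunits of complex I had a median of -0.22 with 0 called.

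Most assembly factors of the complexes had log2 fold changes below 0 as well, where 50.6% of all genes did. The assembly lists of complexes II, III, IV and V had 4, 6, 20 and 5 tested genes, of which 4, 6, 18 and 5 had a log2 fold change below 0, with medians of -0.61, -0.40, -0.41 and -0.58. Fmc1, an assembly factor of the F1 head, was the only one of these called lower by edgeR (log2 fold change -1.24, adjusted p = 0.0452, against 3.84% of all genes). DESeq2 called 1, 0, 3 and 1 genes lower in the lists of complexes II, III, IV and V, against 7.15% of all genes. Sco2, a copper chaperone of complex IV, was the only one of these that edgeR called higher, against 8.6% of all genes. It had 13.1, 19.8 and 15.2 CPM in WT replicates 1, 2 and 3 and 29.8, 42.3 and 29.4 CPM in the CgA-KO ones, and rose by a log2 fold change of 1.07 (adjusted p = 0.0188 by edgeR). Of 15 tested genes for the upkeep and expression of mitochondrial DNA, 13 were below 0 with a median of -0.29, and 0 were called by edgeR and 1 was called lower by DESeq2. Among 25 other mitochondrial membrane and matrix proteins the median was -0.16, with 20 below 0. Of these, edgeR called 0 lower and 1 higher, while DESeq2 called 2 lower (7.15% of all genes) and 1 higher (11.6% of all genes). Slc25a4, the heart and muscle form of the ADP/ATP carrier, was called higher in this list (log2 fold change 1.37, adjusted p = 0.0174 by edgeR), at 3.43 to 6.27 (WT) and 10.9 to 15.2 CPM (CgA-KO).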

How the data were processed

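Libraries were made from poly(A) RNA of the liver, 1 per animal and 3 per genotype. The authors deposited counts, whole numbers without normalization, in one table of 32212 gene symbols by 6 libraries, quantified with Salmon 1.4.0 against the GRCm38 transcriptome. The annotation and the step from transcripts to genes are not given in the sources used here, and reads of close paralogs and pseudogenes could have been split between rows. All 6 columns were mapped by their names to a sample, and replicates were kept separate. No pair of libraries was a duplicate (the smallest chi-square divided by its degrees of freedom over genes was 31.9).

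Genotypes were compared in edgeR 4.0.16 under R 4.3.3 (filterByExpr with a minimum count of 10, TMM factors, robust quasi-likelihood fit of genotype, two-sided test, Benjamini-Hochberg adjustment over the 13867 genes tested, threshold 0.05). Levels are TMM-normalized CPM. The SE of a log2 fold change is its size divided by the square root of F, an approximation. Coding and transcript lengths are medians over transcripts of GENCODE vM21 on GRCm38, matched for all 55 members. Principal RefSeq-matched transcripts were used where present, and other transcripts of the gene where not. Atp5o had the same annotated transcript and coding length, 530 nt, so its length may be incomplete.

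Named genes are the mitochondrially encoded members, called members, and the nuclear member with the largest change in each direction in each complex. Uqcrb, Atp5a1 and the tissue isoforms of complexes IV and V were named as well. The study measured Uqcrb, Atp5a1 and ATP6 in liver by PCR. It reported Atp5a1 and ATP6 as higher in CgA-KO than in WT livers. For Uqcrb it reported increased expression in CgA-KO livers at an earlier age and a decline by 2 yr. That decline is a change with age and not a difference from WT. In the libraries here the log2 fold changes (CgA-KO minus WT) were -0.19 for Atp5a1, 0.08 for ATP6 and -0.81 for Uqcrb, none called by edgeR. The value of Atp5a1 thus had the opposite sign to the PCR result. Members and lists were chosen with earlier results of these data known. Alternatives were DESeq2 1.42.0, limma-voom (limma 3.58.1), library size alone, upper-quartile factors, omission of mitochondrial genes, 2 other filters, a replicate block, a threshold of 0.01 and leaving out each library, and 2 more were added after the data were seen. The procedure was tested on simulated counts of independent genes with no gradient by length, so that test does not cover the shared shifts described here. Figures were drawn with matplotlib 3.10.9.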

Additional observations from a re-analysis of the deposited data

Results flagged for a closer look

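Cox4i2 did not pass the filter on low counts and was not in the main comparison. It entered only the alternative with a total of at least 1 count, described in the next section. It held 20 counts over the 3 CgA-KO libraries (4, 7 and 9 in replicates 1, 2 and 3) and 0 in the WT libraries, which drew attention to it as a signal above the control level in a row left untested. No test is given here, and the call in that alternative is not used as a result. The gene was noted for these counts and passes a filter through the CgA-KO libraries alone. The counts are few, and markers of stellate cells and other non-parenchymal cells were also higher in CgA-KO livers. Their part in this value was not tested.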

How the results depend on the processing

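The count of members called lower was 0 and rose to 12 with DESeq2 and ran from 0 to 11 with each library left out (11 without WT replicate 1). The count called higher was 0 and became 1 with a total of at least 1 count, through Cox4i2, which passes that filter by its CgA-KO counts alone and is compared with 0 counts in WT, and stayed at 0 with each library left out. In the remaining alternatives, among them the length offset and the fit without both replicates 2 (both chosen after seeing the data), both counts were 0. The nuclear median of -0.56 ran from -0.72 to -0.33 with each library left out and from -0.58 to -0.26 over the alternatives other than these, below 0 in all of them. The median of the mitochondrially encoded members, -0.11, ran from -0.31 to 0.16 with each library left out and was 0.19 with library size alone, 0.16 with the length offset and 0.35 without both replicates 2, a fit with fewer samples. Their log2 ratio to the nuclear members, 0.29, ran from 0.02 to 0.59 with a library left out, and was 0.57 from medians and 0.56 without both replicates 2.

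Of 22 named genes, 8 changed sign in at least 1 alternative, none of them called, and the cause was not tested. With library size alone COX3 was 0.13, CYTB 0.25, Atp5a1 0.10 and Cox7a2l 0.0852, where the median over all genes was 0.26. With upper-quartile factors CYTB was 0.0025. Values with a library left out are given by library: ATP6 was -0.05 without WT replicate 1, CYTB 0.22 and Cox7a2l 0.10 without WT replicate 2, ATP8 -0.03 without WT replicate 3, ATP6 -0.12 and ATP8 -0.23 without CgA-KO replicate 1, and COX3 0.10 and CYTB 0.22 without CgA-KO replicate 2. With the length offset COX3 was 0.18, CYTB 0.16, Cox7a2l 0.0027 and Cox8a 0.14. Without both replicates 2, COX1 was 0.23, COX3 0.18, CYTB 0.46 and Cox7a2l 0.19. Over all fits with libraries left out, COX1 ran from -0.57 to 0.23, COX3 from -0.40 to 0.18, CYTB from -0.20 to 0.46, ATP6 from -0.12 to 0.55, ATP8 from -0.23 to 0.55 and Cox7a2l from -0.36 to 0.19.

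Same-numbered libraries deviated together little or not at all (correlations of 0.20, 0.01 and -0.07 for numbers 1, 2 and 3). With so few libraries per genotype this cannot show whether the numbers pair the mice, and the labels state no pairing. With the replicate block 0 members were called, the nuclear median was -0.57, the mitochondrial median -0.13, the log2 ratio 0.29, and ATP8 was -0.0084. Isoforms at few or 0 counts are limited by depth, and its part in the other values was not tested.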
